A study of Mus musculus with 29 samples.

Results

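Pairs of poly(A) sites lying 2000 to 10000 nt apart were described in the mouse myoblast line C2C12, and 963 of 5250 pairs (18.3%) had this spacing. For each gene, the 2 sites with most reads over all 26 3' end libraries were taken, the upstream one being called proximal and the downstream one distal. A pair needed at least 260 reads in all and at least 5% of them at the rarer site. The pairs were thus chosen by their reads and shares summed over all libraries, and those overall levels are a description with no test. How the distal share, meaning distal reads as a percentage of the reads at both sites, differed between libraries was not used directly in the choice. A pair could still pass the 5% limit only through the group in which its rarer site was used most. A test of that group is then not independent of the choice.

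The study separated C2C12 cells into a cytosol and a membrane fraction and counted sequenced transcript ends at each poly(A) site. The 16 gradient libraries formed 8 groups of 2 replicates, from proliferating or differentiating cells, cytosol or membrane, and polysome or monosome. Proliferating cells without puromycin, and with 100 µg/ml of it for 0, 30 and 60 min, gave 8 more libraries, a cytosol and a membrane one for each condition. A cytosol and a membrane library of whole fractions, and RNA-seq of the cytosol, membrane and insoluble fractions of proliferating cells, completed the set without replicates. All cells were of 1 unmodified line. Proliferating cells grew in 10% fetal bovine serum. Differentiating cells of the polysome libraries are labelled with 2% horse serum, whereas the differentiating monosome libraries carry the label of the proliferating medium. RNA of the gradient libraries was extracted with phenol and chloroform, and that of the other libraries with TRIZol. The labels do not state whether replicates are separate cultures, and the p-values then reflect only the spread between these libraries, which may be technical.

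Cleavage and polyadenylation end a transcript, and many mammalian genes can be ended at more than 1 site. When both sites follow the same stop codon, use of the distal site adds sequence to the 3' UTR and leaves the protein the same. When the sites end different last exons or an intron, the protein itself can differ. An mRNA reaches the endoplasmic reticulum when its signal peptide or membrane segment is being translated, and puromycin, which releases unfinished chains from the ribosome, removes that tether. Site positions here are on build mm9, per the submitters' processing notes. No annotation of that build was used, so tandem sites, alternative last exons and intronic sites cannot be told apart for these pairs.

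The 963 pairs lay on 20 chromosomes, 516 of them on the plus strand, with a median of 3312 nt between sites (range 2001 to 9871 nt). Their median was 1651 reads over all libraries and their median distal share 63.4%, and the distal site held 50% or more of the reads in 610 pairs. The 2 sites together held a median of 86.9% of the reads of their gene, although the median gene had reads at 9 sites and 32 genes had only 2. In 18 pairs the 2 sites held under 50% of the gene's reads. Clone or predicted-gene symbols made up 69 of the names and spreadsheet dates another 4. The pair with most reads was that of Lmna, with 223921 reads and a distal share of 29.9%. Lmna encodes the A-type lamins of the nuclear lamina, where the shorter transcript end is known to give lamin C and the longer one lamin A. Pdlim7, encoding a PDZ and LIM domain protein of actin filaments, followed with 206317 reads and a distal share of 43.1%. Tpm1, a tropomyosin gene known for alternative last exons, had 124113 reads and 54.4%. Pmepa1, a membrane protein that dampens TGF-beta signalling, had 111021 reads and 32.2%.

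The thresholds cut through a continuous range. Zfp800, Stk16 and Fam164a were just inside the lower distance limit with 2001, 2005 and 2007 nt, and St6galnac4, Spred1 and Cd164 just outside it with 1996, 1995 and 1994 nt. Hook3, Ppp1r3f and Klhl20 were just inside the upper limit with 9871, 9870 and 9868 nt, and Brwd1, Fam116b and Phf17 just outside it with 10013, 10039 and 10087 nt. The rarer site held 5.05% of the reads of Top3a and 5.10% of those of Tmcc1, against 4.98% for Rab6b and for Nbeal2, which stayed out.

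The libraries held 2987706 to 11721948 reads each. Replicates of all 8 groups differed by more than counting noise, with chi-square values per degree of freedom of 17.6 to 33.4. Summed CPM, counts scaled to the library total, of 7 differentiated-muscle markers were 6.26 to 281 in proliferating libraries and 3572 to 41468 in differentiating ones. The 5 myoblast markers summed to 248 to 1103 CPM in proliferating and to 1223 to 2163 CPM in differentiating libraries, with the differentiating range above. Among differentiating polysome libraries, replicate 1 reached 41468 CPM in cytosol and 32970 in membrane, and replicate 2 only 7457 and 6798. Markers of leukocytes, endothelium, fat and epithelium summed to at most 1.70 CPM, with 2 of the 8 not listed. The 3 endoplasmic reticulum markers Hspa5, Pdia3 and Calr summed to 925 to 6133 CPM in membrane libraries and 75.4 to 3234 in cytosol libraries. The overlap came from the cytosol libraries of 30 and 60 min of puromycin, with 3234 and 2946 CPM, while the 11 other cytosol libraries held 75.4 to 260 CPM. Membrane had 2754 and 2935 CPM at those times, against 6114 CPM at 0 min and 6133 CPM untreated.

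The first question was whether transcripts ending at the distal site made up a different part of the pair in membrane and in cytosol. Membrane libraries had the higher distal use in all 13 matched pairs of libraries. Over the 963 pairs, the median log2 ratio of distal to proximal reads (1 read added to each) was 1.00 and 0.91 in the proliferating membrane polysome replicates and 0.42 and 0.46 in their cytosol partners. It was 1.00 and 0.79 in membrane monosomes and 0.38 and 0.46 in cytosol monosomes. The membrane and cytosol values of proliferating gradient libraries did not overlap. In differentiating cells the membrane values were 1.12 and 1.51 in polysomes and 0.74 and 1.00 in monosomes, against 0.65 and 0.98 and then 0.35 and 0.58 in cytosol. Those ranges overlapped across replicates and gradient parts. The whole fractions gave 0.87 in membrane and 0.53 in cytosol. In such bulk libraries, fewer cells of a kind and less RNA per cell cannot be told apart.

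**Figure D1:**
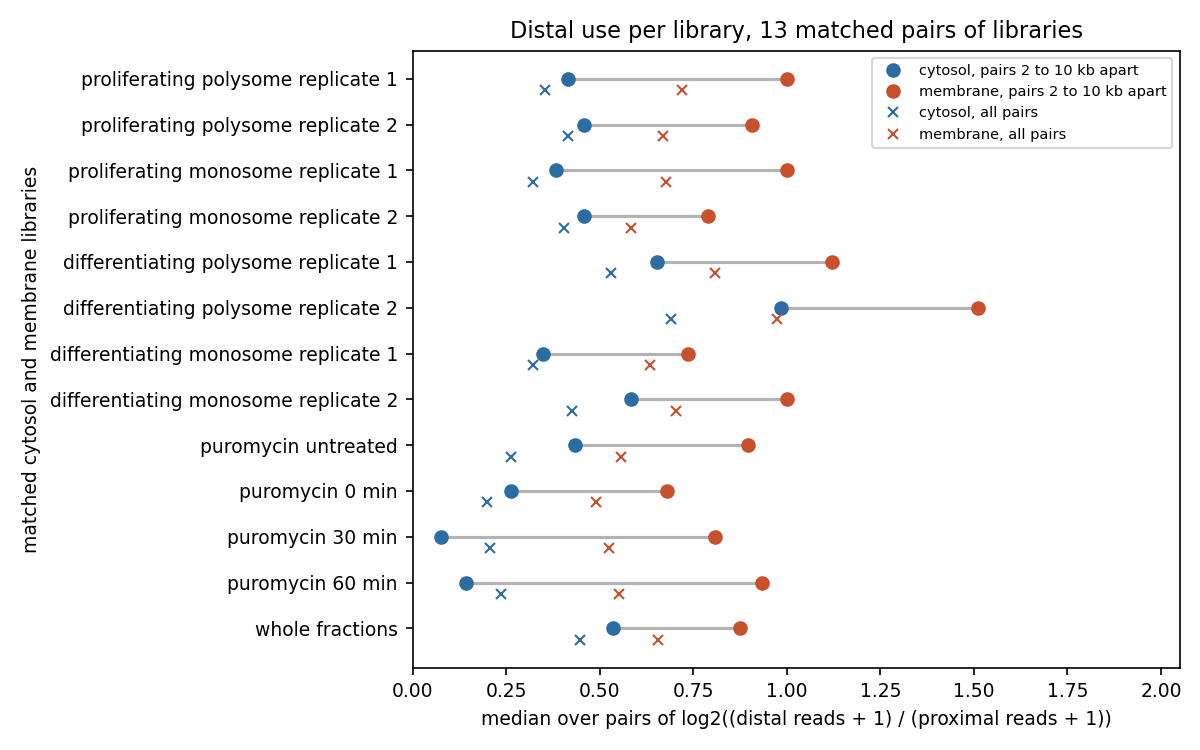
Median over pairs of log2 distal to proximal reads (1 read added to each) in each of 26 libraries, in 13 matched rows of cytosol (blue) and membrane (red). Circles joined by a line are the 963 pairs 2 to 10 kb apart, crosses are all 5250 pairs, and in every row the red circle lies to the right of the blue one, by 0.33 in proliferating monosome replicate 2 and by up to 0.79 at 60 min of puromycin.

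The median fraction difference was larger in pairs 2 to 10 kb apart than in both closer classes, and showed no trend with distance within the 2 to 10 kb range. In proliferating gradient libraries the fitted difference in log2 distal to proximal ratio, membrane minus cytosol, had a median of -0.00 in 1201 pairs under 200 nt apart and 0.13 in 2503 pairs 200 to under 2000 nt apart. The 963 pairs had 0.51 (quartiles -0.17 and 1.15), and 583 pairs over 10000 nt apart had 0.65. In the puromycin libraries the same 4 medians were 0.02, 0.23, 0.61 and 0.55, and in differentiating libraries the 2 widest classes had 0.34 and 0.47. Within the 963 pairs the proliferating medians were 0.49 for 403 pairs at 2000 to under 3000 nt, 0.60 for 331 at 3000 to under 5000 nt and 0.36 for 229 at 5000 nt or more. Spearman's rho between distance and the fitted difference was -0.01 within the 963 pairs and 0.22 over all 5250, as a description across genes that share the same libraries. Pairs whose distal site held under 50% of the reads had a median of 0.62, and the others 0.44.

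**Figure D2:**
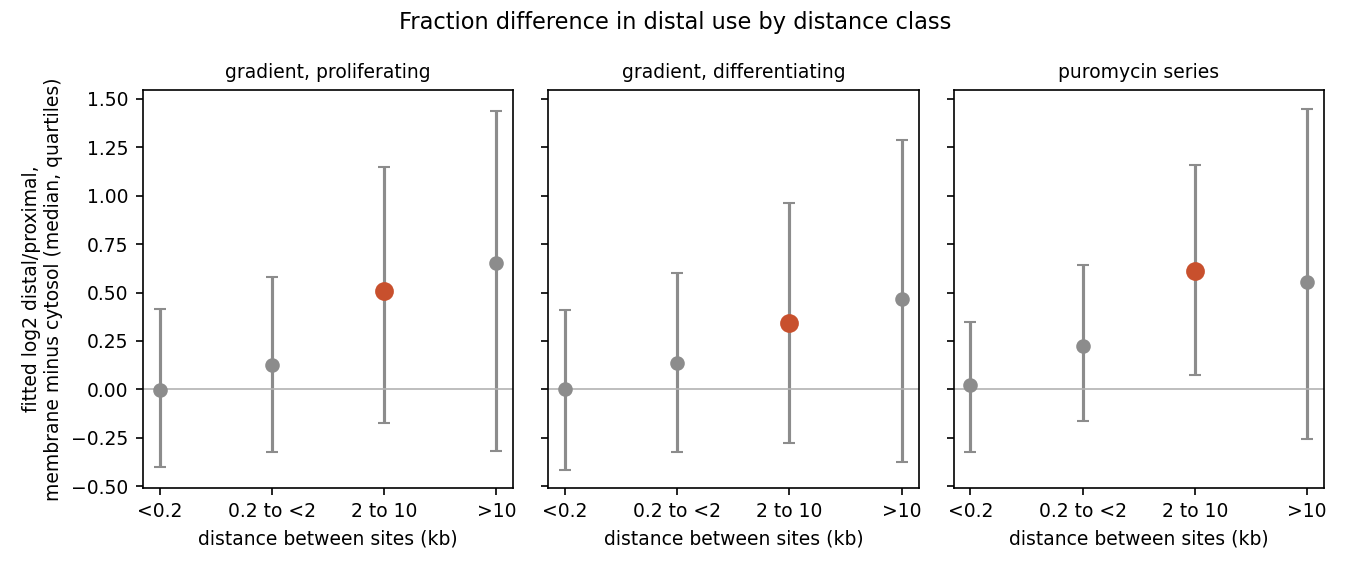
Fitted membrane minus cytosol difference in log2 distal to proximal ratio (y axis) in 4 classes of distance between sites (x axis, kb), for proliferating gradient, differentiating gradient and puromycin libraries. Points are medians over pairs and bars run between quartiles, and the 2 to 10 kb class (red) has medians of 0.51, 0.34 and 0.61 while the class under 0.2 kb lies at zero.

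In proliferating cells, 22 of the 963 pairs were called with higher and 2 with lower distal use in membrane by edgeR's quasi-likelihood test (adjusted p under 0.05 over all 5250 pairs). Over all pairs, 0.895% were called higher and 0.171% lower. The estimate was positive in 670 of the 963 pairs (69.6%) and in 59.0% of all pairs. With the replicate number as a block, since same-numbered libraries deviated together, 112 pairs were called higher and 9 lower, against 5.73% and 1.24% of all pairs, and all 24 calls of the fit without block (1.07% of all pairs) were kept. Every membrane library was above every cytosol library in 97 of 912 pairs with reads throughout (10.6%), against 5.72% of all pairs. All 24 calls fell among the 547 pairs with at least 1300 reads. The number of calls in both directions dropped from 24 to 12 without cytosol polysome replicate 1, to 14 without cytosol polysome replicate 2 or cytosol monosome replicate 1, and to 15 without membrane monosome replicate 2.

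Vapb, encoding a tail-anchored protein of the endoplasmic reticulum that holds contact sites with other organelles, had the largest change (sites at chr2:173603825 and 173609840, plus strand, 6015 nt apart). Its distal share in cytosol was 7.13% and 5.16% in polysomes and 2.19% and 1.10% in monosomes, and in membrane 12.4% and 8.75% in polysomes and 35.2% and 27.0% in monosomes. Membrane lay above cytosol throughout, by 2.82 ± 0.43 on the log2 scale (SE; adjusted p = 0.0012, edgeR). At the gene level Vapb went the other way, with reads over all its sites lower in membrane by 1.12 on the log2 scale (log2 change -1.12 ± 0.24, adjusted p = 0.0030).

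Fem1a, a substrate receptor of a cullin ubiquitin ligase (chr17:56399545 and 56403033, plus strand), had distal shares of 9.85%, 11.4%, 15.5% and 12.8% in the proliferating cytosol libraries and 25.5%, 27.9%, 48.4% and 54.5% in the membrane libraries, polysomes first. The groups did not overlap, and the change was 2.15 ± 0.33 (adjusted p = 0.0011). Cbx5, encoding the heterochromatin protein HP1 alpha (chr15:103029896 and 103021977, minus strand), ranged from 69.5% to 73.4% in cytosol and from 85.2% to 94.3% in membrane, a change of 2.01 ± 0.41 (adjusted p = 0.012). The sites of Cbx5 are 7919 nt apart. Stk35, encoding a nuclear serine/threonine kinase, ranged from 47.1% to 74.4% in cytosol and from 86.6% to 93.8% in membrane (2.49 ± 0.40, adjusted p = 0.0016). Fam111a, a protease gene, ranged from 18.7% to 26.5% and from 44.6% to 60.9% (2.04 ± 0.37, adjusted p = 0.0049). In each of these genes the lowest membrane library was above the highest cytosol library. The call of Cbx5 was lost without cytosol polysome replicate 1 or cytosol monosome replicate 1 (adjusted p up to 0.062, from 5.2e-16 in other fits).

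Lsm11, a component of the U7 particle that processes histone mRNA, had a cytosol distal share of 1.75% to 10.0% and a membrane share of 21.9% to 39.7% (2.55 ± 0.53, adjusted p = 0.014). Mkln1, a subunit of the CTLH ubiquitin ligase, had 0% (0 of 53 reads, which allows up to 5.66%) to 5.13% and 10.9% to 25.0% (2.52 ± 0.60, adjusted p = 0.043). Over the cytosol libraries together, the distal site of Mkln1 held under 5% of the reads. Its pair thus met the 5% limit only through membrane libraries. The comparison of its fractions is not independent of the choice, and the value is a description only. Mprip, which targets myosin phosphatase to actin, had 3.99% to 10.4% and 16.5% to 20.4% (1.76 ± 0.31, adjusted p = 0.0044). These 3 genes used the proximal site for most transcripts in both fractions. Asb1, an adaptor of a cullin ligase, went from 24.1% to 47.8% in cytosol to 55.4% to 82.5% in membrane (2.47 ± 0.52, adjusted p = 0.014). Bap1, a nuclear deubiquitinase, had 90.9% and 90.1% in cytosol polysomes, 44.5% and 61.5% in cytosol monosomes and 87.5% to 97.6% in membrane (2.04 ± 0.40, adjusted p = 0.0087). Its ranges overlapped, since the membrane monosome libraries lay below the cytosol polysome libraries. Leaving out 1 of the 8 libraries at a time ended the calls of Lsm11 and Mkln1 in 6 fits each, of Asb1 in 5 and of Bap1 in 2, with adjusted p up to 0.13, 0.23, 0.12 and 0.094.

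The other direction was held by Pcbd2, which encodes a pterin dehydratase and transcriptional cofactor, and by the clone gene 1810013L24Rik, named outside the rule because only 2 pairs were called lower. Pcbd2 had distal shares of 98.0% and 97.9% in cytosol polysomes and 74.0% and 79.1% in cytosol monosomes, and in membrane 93.3% and 82.0%, then 53.9% and 32.8%. Within polysomes and within monosomes, each membrane library was below both cytosol libraries, and the change was -2.35 ± 0.54 (adjusted p = 0.031). The call of Pcbd2 was lost in 6 of 8 fits that left out 1 library (adjusted p 0.024 to 0.17). For 1810013L24Rik the change was -1.99.

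**Figure D3:**
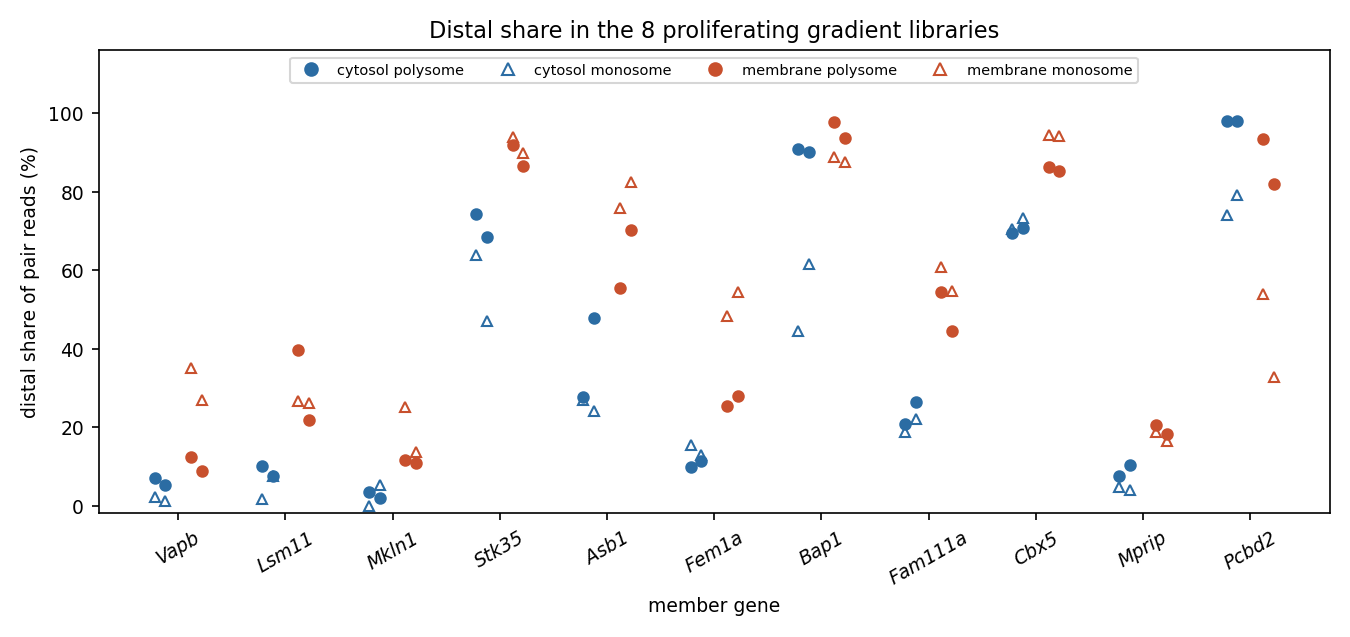
Distal share of the reads at both sites (%, y axis) in the 8 proliferating gradient libraries for the 11 named pairs (x axis), with cytosol in blue, membrane in red, circles for polysomes and open triangles for monosomes. Each symbol is 1 library, left replicate 1 and right replicate 2, and the red symbols of 9 genes lie above all of their blue ones, with Bap1 overlapping and Pcbd2 running the other way.

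In differentiating cells 1 pair was called higher in membrane and 0 lower, where 0.114% and 0.0571% of all pairs were called. At an unadjusted p under 0.05, 93 of the 963 pairs passed, against 355 of all 5250, and DESeq2 called 6 of the 963. The median difference was 0.34 over the 963 pairs and 0.15 over all pairs. With the replicate block, 38 pairs were called higher and 1 lower, against 2.38% and 0.267% of all pairs (2.65% in both directions). The call was Vapb, with cytosol shares of 15.0% and 16.9% in polysomes and 0 of 120 and 0 of 114 reads in monosomes, which allow up to 2.50% and 2.63% by counting error alone. Its membrane shares were 20.5% and 27.4% in polysomes and 7.61% and 7.14% in monosomes, above cytosol within each gradient part. The fitted change of 4.14 ± 0.81 (adjusted p = 0.044) depends on how an empty site is treated and is no bound, and the call was lost in all 8 fits that left out 1 differentiating library (adjusted p 0.050 to 0.23).

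Whether the fraction difference itself depended on the state was tested as an interaction. By edgeR it was called in 0 of the 963 pairs and 0% of all pairs, and by DESeq2 in 0 of the 963. At an unadjusted p under 0.05, 48 of the 963 pairs passed, against 167 of all 5250. With the block 3 pairs were called, 1 higher and 2 lower, beside 0.0762% and 0.0381% of all pairs. The 2 lower ones, named outside the rule, were Fem1a (-1.58) and Cbx5 (-1.44), and the higher one was the clone gene 2410017P09Rik (1.64). Fem1a shares in differentiating cells were 2.95% to 6.25% in cytosol and 4.64% to 10.9% in membrane, with overlapping ranges, unlike in proliferating cells. Cbx5 shares in differentiating cells spread from 40.0% to 85.7% in cytosol and from 51.9% to 90.6% in membrane.

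The puromycin libraries gave the fraction difference again in cells of the proliferating state, with 4 cytosol and 4 membrane libraries that the gradient set did not share. Here 170 of the 963 pairs had higher and 16 lower distal use in membrane, where 8.72% of all pairs were called higher and 1.98% lower. Since the endoplasmic reticulum markers did not separate the fractions at 30 and 60 min, the comparison was also made without those times. From the untreated and 0 min pairs alone, 67 pairs were called higher and 13 lower (4.04% and 1.10% of all), with a median of 0.46, and 70 of these 80 were among the 186 calls of all 4 times. From the 30 and 60 min pairs alone, 181 were called higher and 16 lower (8.86% and 1.28% of all), with a median of 0.76. Over all 4 times the estimate was positive in 745 pairs, with a median of 0.61 over the 963 pairs and 0.24 over all. Of the 22 pairs called higher in the proliferating gradient, 19 were also called here (86.4% of those 22 and 11.2% of these 170), and so were both lower ones. Spearman's rho between the 2 sets of estimates was 0.44 over 963 genes, given as a description. Every membrane library was above every cytosol library in 171 of 929 pairs (18.4%), against 10.6% of all pairs.

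The largest change among the named pairs with higher distal use in membrane was in Plekha8, which encodes a glycolipid transfer protein of the trans-Golgi network. Its distal share was 80.4%, 73.7%, 75.6% and 82.1% in cytosol (untreated, then 0, 30 and 60 min) and 94.7%, 98.2%, 91.5% and 98.2% in membrane, a change of 2.74 ± 0.50 (adjusted p = 8.8e-05). Over the membrane libraries together, the proximal site of Plekha8 held under 5% of the reads. The pair thus met the 5% limit only through cytosol libraries, and its comparison of fractions is not independent of the choice. Sco1, encoding a mitochondrial copper chaperone, had 13.3%, 28.6%, 12.1% and 23.7% in cytosol and 45.9%, 62.3%, 53.3% and 67.0% in membrane (2.55 ± 0.48, adjusted p = 0.00012). Rbm4, encoding an RNA-binding splicing regulator, had 22.5%, 22.0%, 15.4% and 16.7% and then 53.0%, 62.4%, 60.4% and 56.9% (2.53 ± 0.37, adjusted p = 1.6e-06). In all 3 genes each membrane library was above each cytosol library. Sykb (2.39 ± 0.59) and Whsc1 (2.29 ± 0.51), the latter a histone methyltransferase gene, completed the 5 largest of this direction. The call of Sykb was lost without 1 of the 4 exposures (adjusted p = 0.050), and from the untreated and 0 min pairs alone those of Sco1 (2.21, adjusted p = 0.061) and Sykb (2.49, adjusted p = 0.11) were lost. The call of Whsc1 was lost from the 30 and 60 min pairs alone (1.79, adjusted p = 0.099).

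Several abundant pairs showed the same direction at a smaller size. Lmna had a distal share of 29.3%, 23.5%, 26.6% and 22.0% in cytosol and 39.8%, 35.9%, 36.2% and 37.7% in membrane (0.82 ± 0.11, adjusted p = 2.6e-07). The 2 sets did not overlap in the puromycin libraries, but in the proliferating gradient the Lmna ranges were 23.2% to 27.7% in cytosol and 22.9% to 32.7% in membrane (0.25 ± 0.23, adjusted p = 0.80). Pmepa1 changed by 1.03 ± 0.15 (adjusted p = 6.9e-07) and Pdlim7 by 0.51 ± 0.11 (adjusted p = 0.00097). Cbx5 shares were 78.0%, 75.2%, 67.7% and 64.3% in cytosol and 92.9%, 89.2%, 89.8% and 89.6% in membrane (1.92 ± 0.16, adjusted p = 3.3e-13). Not every abundant pair moved. Arf6, a small GTPase of endocytosis, stayed between 89.1% and 93.6% in all 8 libraries (-0.04 ± 0.15, adjusted p = 0.93), and Mfap3l between 76.4% and 88.6% (-0.07 ± 0.16, adjusted p = 0.88).

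The 5 named pairs in the other direction had a distal share of at least 80.0% in every cytosol library. Ccdc163 had cytosol shares of 98.5%, 100% (0 of 80 reads proximal, which allows up to 3.75%), 98.9% and 95.8% and membrane shares of 65.8%, 85.8%, 69.9% and 56.9% (-4.80 ± 0.60, adjusted p = 6.8e-08). Osgep, which encodes the catalytic subunit of the complex that makes the t6A modification of tRNA, had 97.5% to 99.6% in cytosol and 87.2% to 95.6% in membrane (-3.30 ± 0.28, adjusted p = 1.3e-10). Pcbd2 had 86.1% to 94.3% and 44.2% to 66.4% (-3.02 ± 0.24, adjusted p = 1.5e-13). Cytosol was above membrane in all libraries of these genes. Over the cytosol libraries together, the proximal sites of Ccdc163 and Osgep each held under 5% of the reads. Both pairs thus met the 5% limit only through membrane libraries. Their comparison of fractions is not independent of the choice, and its values are a description only. The zinc finger gene Zfp58 (-4.70 ± 0.88) and the glycogen-targeting phosphatase subunit gene Ppp1r3f (-2.32 ± 0.55) were the other two. Zfp58 had no proximal read in 3 of 4 cytosol libraries, from 29, 33 and 109 reads, so that its fitted value is no bound.

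By gene class, in lists drawn up with earlier results of these data known, 7 of 19 chromatin and transcription factor pairs were called higher in membrane and 0 lower in the puromycin libraries. Over all pairs 8.72% were called higher and 1.98% lower there, and over the 963 pairs 17.7% and 1.66%, which is the base for each class. The median of the 19 was 1.12, against 0.61 over the 963 pairs and 0.24 over all pairs. Among the 7 called were Cux1 (2.07), Ncoa3 (2.01), Cbx5 (1.92), E2f3 (1.44), Wwtr1 (1.12) and Sp1 (0.80). Of 8 cytoskeleton and adhesion pairs, 5 were higher and 0 lower: Kif3a, a kinesin motor subunit (1.63), Mapre1, a microtubule end-binding protein (0.86), Lmna, Tpm3 (0.70) and Pdlim7. Of 10 small GTPase and vesicle traffic pairs, 4 were higher and 0 lower, among them Vapb (1.76), the clathrin adaptor subunit gene Ap2b1 (1.42) and Nras (1.25). Nras ranged from 10.3% to 23.0% in cytosol and from 29.1% to 36.3% in membrane, with no overlap. Leaving out 1 exposure ended the calls of Sp1 (2 of 4 fits), Tpm3 (without 0 min) and Nras (without 30 min), with adjusted p up to 0.39, 0.059 and 0.10. From the untreated and 0 min pairs alone the calls of Sp1 (0.08, adjusted p = 0.96) and Nras (1.02, adjusted p = 0.16) were lost, and from the 30 and 60 min pairs alone those of Tpm3 (0.57, adjusted p = 0.14) and Pdlim7 (0.42, adjusted p = 0.052).

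Of 11 ubiquitin-system pairs, 3 were higher and 0 lower (Smurf1 1.24, Otud7b 1.17 and Trim44 0.74). Among 9 kinase and phosphatase pairs the call was Prkca (1.52), protein kinase C alpha, with 37.1% to 58.5% in cytosol and 66.8% to 73.5% in membrane. Among 12 RNA-binding pairs it was Tial1 (1.27), with 90.7% to 92.8% in cytosol and 95.8% to 96.8% in membrane. Secreted and membrane proteins had 0 of 18 pairs called higher and 1 lower, with a median of 0.26, against 0.61 over the 963 pairs. The lower one was Nrp1, a receptor of semaphorins and VEGF, with 36.6%, 60.7%, 32.6% and 35.6% in cytosol and 30.4%, 18.8%, 25.3% and 26.6% in membrane (-0.85). The calls of Nrp1 and Smurf1 were each lost in 1 of 4 fits that left out an exposure (without 0 min and without 30 min, both with adjusted p of 0.21), and that of Trim44 in 2. From the untreated and 0 min pairs alone Smurf1 (0.89, adjusted p = 0.39) and Trim44 (0.40, adjusted p = 0.58) were not called, and from the 30 and 60 min pairs alone Nrp1 was not (-0.56, adjusted p = 0.14). The difference between gene classes was not tested. In the proliferating gradient these lists held 2 calls, Cbx5 and Vapb.

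Reads of the whole gene were not independent of the choice of pairs, since the sites of a pair held a median of 86.9% of them. Pairs with few reads were left out by the choice, whereas the genes tested at this level did not need a pair. The choice used reads summed over all libraries and did not directly use the difference between fractions. In proliferating gradient libraries 277 of 962 genes with such pairs were higher in membrane and 72 lower, against 23.2% and 11.6% of all genes tested, with a median of 0.33 against 0.18 over all genes. With the replicate block these counts were 380 and 158, against 33.6% and 22.5% of all genes. With DESeq2 size factors in place of TMM the median over all genes was 0.00 instead of 0.18, and 236 of the genes were higher and 106 lower (20.0% and 16.1% of all genes). In differentiating cells 164 were higher and 32 lower, against 14.3% and 5.67% of all genes. With the block 274 were higher and 113 lower there (25.1% and 18.3% of all genes). A closer base is the 5245 tested genes with a pair of any distance, which met the same read and share limits. Without block, 25.4% of them were higher and 11.7% lower in proliferating cells, and 15.6% and 5.26% in differentiating cells. Of the 170 pairs with higher distal use in membrane in the puromycin libraries, 38 genes were higher in membrane at the gene level in the proliferating gradient, 17 were lower and 115 were not called. Of the 22 called in the gradient itself, 2 genes were higher, 5 lower and 15 not called.

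The puromycin libraries also allowed the fraction difference to be compared between lengths of exposure. Over the 963 pairs the median distal share in cytosol was 60.0% untreated, 57.1% at 0 min, 51.7% at 30 min and 52.6% at 60 min. In membrane it was 65.9%, 62.5%, 65.0% and 66.2%. The cytosol value was lower at both later times and the membrane value was not, and pairs with the higher share in membrane made up 66.9%, 66.5%, 74.1% and 75.9% of those with at least 10 reads in both libraries. The fraction markers moved with these values. Endoplasmic reticulum markers were at 213 and 189 CPM in cytosol against 6133 and 6114 CPM in membrane (untreated and 0 min), but at 3234 against 2754 CPM after 30 min and at 2946 against 2935 CPM after 60 min. The cytosol markers Rpl8 and Rpl41 summed to 39872 and 46809 CPM in cytosol against 13463 and 18101 CPM in membrane (untreated and 0 min), to 27511 against 28343 CPM after 30 min and to 23017 against 26976 CPM after 60 min. At both later times the endoplasmic reticulum markers were no higher in membrane than in cytosol and the cytosol markers no higher in cytosol than in membrane. The part of this in the change of distal share was not tested. Over all 5250 pairs the cytosol median log2 ratios were 0.26, 0.20, 0.21 and 0.24, and over the 963 pairs 0.43, 0.26, 0.08 and 0.14. With 1 library per fraction and time, these medians have no replicates.

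Pair by pair, the membrane to cytosol difference rose per 30 min of exposure in 8 of the 963 pairs and fell in 3, where 0.400% of all pairs rose and 0.210% fell (untreated cells were taken as 0 min). The median change per 30 min was 0.17 over the 963 pairs and 0.06 over all. Without the 60 min pair 5 pairs were called in both directions, without the 0 min pair 6, and by DESeq2 5, in place of 11 (0.610% of all pairs).

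For Lnp, encoding lunapark of endoplasmic reticulum junctions (chr2:74359390 and 74352893, minus strand) the cytosol distal share was 29.2% untreated, 37.2% at 0 min, 8.43% at 30 min and 4.97% at 60 min. The membrane share was 31.1%, 23.2%, 25.9% and 33.0%. The 2 exposed cytosol libraries were the low ones, and the change per 30 min was 1.88 ± 0.39 (adjusted p = 0.00069). Reads of the whole gene in cytosol moved as well, with 11.1, 10.8, 35.1 and 33.8 CPM in the same order, and 95.8, 79.2, 44.7 and 43.8 CPM in membrane. Sel1l, encoding an adaptor of the ubiquitin ligase for misfolded endoplasmic reticulum proteins, had cytosol shares of 84.0%, 78.7%, 57.4% and 52.5% and membrane shares of 68.7%, 59.9%, 65.0% and 72.5% (1.26 ± 0.23 per 30 min, adjusted p = 2.1e-05). Its cytosol share lay above membrane without exposure and below it after 30 and 60 min, while its cytosol level was 18.9, 12.3, 77.9 and 80.7 CPM. Edem1, which directs misfolded glycoproteins to degradation, had 12.8%, 14.1%, 4.49% and 3.68% in cytosol and 14.8%, 14.8%, 11.5% and 17.5% in membrane (1.17 ± 0.29, adjusted p = 0.0096), with cytosol levels of 19.3, 21.9, 89.7 and 86.3 CPM. In these 3 genes the cytosol distal share was lower, and the cytosol gene level higher, in both exposed libraries than in both others. The part of the gene level in the change of share was not tested. Leaving out 1 of the 4 exposures ended the call of Lnp in 2 fits (adjusted p up to 0.22), of Edem1 in 3 (up to 0.74) and of Sel1l in 1 (without 60 min, 0.054).

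Ttyh2, encoding a multi-pass membrane protein, had cytosol shares of 100% (0 of 78 reads proximal, which allows up to 3.85%), 95.4%, 86.3% and 88.4% and membrane shares of 92.1%, 93.3%, 95.6% and 97.7% (1.85 ± 0.35, adjusted p = 6.4e-05). That call was kept in all 4 fits that left out an exposure but not by DESeq2. Elmod3, a GTPase-activating protein gene, had 98.6%, 93.1%, 94.9% and 90.0% and then 96.1%, 96.4%, 94.7% and 99.7% (1.63 ± 0.44, adjusted p = 0.043). Its change rested on the 60 min libraries, since it was -0.24 without them. The other three with a rise were H13, the signal peptide peptidase gene (0.95), Timp2, encoding a secreted metalloproteinase inhibitor (0.85), and Derl2 (0.86), which was named after its value was seen. The calls of H13 and Timp2 were each lost in 2 of 4 fits that left out an exposure (adjusted p up to 0.31 and 0.71). H13 had 6.82%, 3.35%, 3.12% and 2.74% in cytosol and 6.59%, 6.72%, 10.3% and 13.1% in membrane.

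The 3 pairs with a fall went the opposite way in cytosol. Prnp, encoding the prion protein (chr2:131757045 and 131764165, plus strand), had cytosol shares of 40.0%, 33.3%, 89.4% and 91.2% and membrane shares of 86.1%, 78.3%, 62.4% and 68.3%. The change was -2.92 ± 0.46 per 30 min (adjusted p = 3.9e-07), and cytosol crossed from below to above membrane. Its cytosol level was 4.72, 4.55, 18.7 and 15.9 CPM. Gorasp2, a Golgi stacking protein gene, had 11.0%, 10.7%, 23.0% and 31.3% in cytosol and 29.7%, 29.2%, 23.9% and 28.9% in membrane (-1.03 ± 0.19, adjusted p = 2.1e-05), at cytosol levels of 200.4, 158, 217 and 209 CPM. Slc38a2, an amino acid transporter gene, had 53.0%, 24.6%, 70.2% and 57.4% in cytosol and 88.2%, 77.4%, 74.3% and 71.5% in membrane (-1.22 ± 0.26, adjusted p = 0.00072). Its untreated and 0 min cytosol libraries, taken as repeats by the model, were farther apart than the untreated and 30 min libraries, and the call was lost without the 0 min pair (adjusted p = 0.22, over all alternatives 8.2e-07 to 0.36).

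**Figure D4:**
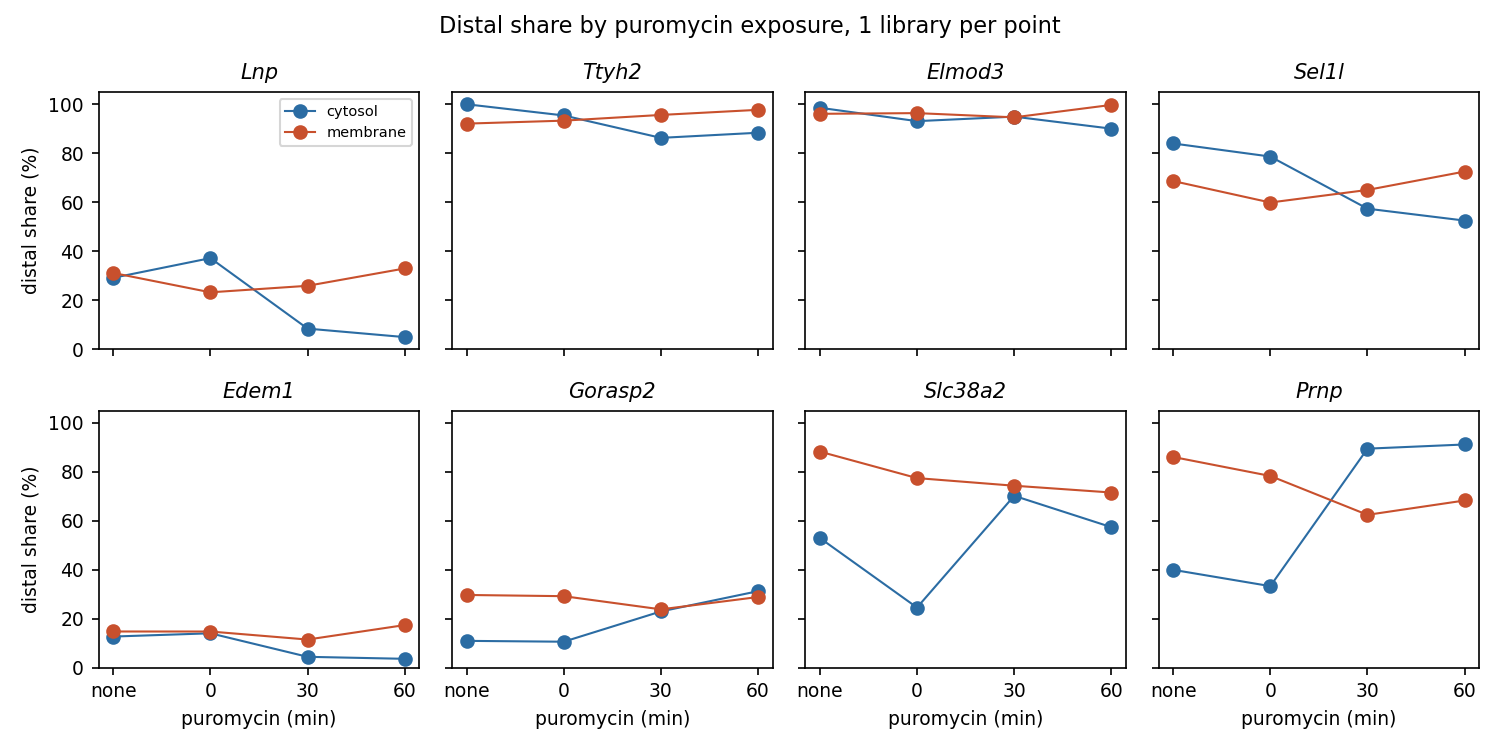
Distal share (%, y axis) in cytosol (blue) and membrane (red) of untreated cells and after 0, 30 and 60 min of puromycin (x axis) for 8 pairs, 1 library per point with no error bar. Cytosol falls to 4.97% for Lnp and 3.68% for Edem1 at 60 min and reaches 91.2% for Prnp, while membrane values of these 3 genes stay between 11.5% and 33.0% or at 62.4% and above.

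Distal use itself, in both fractions together, fell with exposure in 2 pairs and rose in 0, against 0.0381% and 0.0762% of all pairs. This fit had no term per exposure, so the cytosol and membrane libraries of an exposure counted as independent. Its p-values may therefore be too small. Xist, the noncoding RNA of X inactivation, had 40.2%, 26.0%, 15.1% and 12.1% in cytosol and 39.3%, 43.6%, 21.2% and 17.0% in membrane (-0.96 ± 0.21 per 30 min, adjusted p = 0.039). Tm4sf1, encoding a tetraspanin-like surface protein, had 61.4%, 44.7%, 25.3% and 22.5% and then 46.7%, 33.1%, 21.3% and 18.1% (-0.92 ± 0.16, adjusted p = 0.0048). In both genes the 4 libraries of 30 and 60 min were below the 4 others. Leaving out an exposure ended the call of Xist in 3 of 4 fits (adjusted p up to 1) and of Tm4sf1 in 2 (up to 0.24).

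Polysomes were set against monosomes within each fraction. In cytosol 13 of the 963 pairs had higher and 3 lower distal use in polysomes, against 0.857% and 0.267% of all pairs, and 59 and 19 with the block (4.36% and 1.94% of all, 6.30% together). The 16 calls in cytosol, against 1.12% of all pairs, dropped to 9 without proliferating monosome replicate 1 or proliferating polysome replicate 2. In membrane 13 were higher and 2 lower, against 0.571% and 0.114%, and 45 and 12 with the block (2.74% and 1.05%, 3.79% together). Those 15 calls, against 0.686% of all pairs, dropped to between 4 and 9 without any 1 of the membrane libraries other than proliferating polysome replicate 2, where 12 were left. The largest value was that of Msh3, a mismatch repair gene (chr13:92990202 and 92981841, minus strand). The distal share of Msh3 in membrane monosomes was 17.3% and 26.5% in proliferating and 4.46% and 3.18% in differentiating cells, from 243, 113, 359 and 157 reads. In membrane polysomes it was 100%, 100%, 96.3% and 93.8%, and no proximal read appeared in the puromycin and whole-fraction libraries either, from 25 to 58 reads each, which allow a proximal share of up to 5.17% to 12.0%. Its fitted change of 9.20 ± 0.72 (adjusted p = 1.1e-06, edgeR) depends on how an empty site is treated and is no bound. Most proximal reads of Msh3 came from the membrane monosome libraries, through which the pair met the 5% limit. The comparison of membrane polysomes with monosomes is therefore not independent of the choice of this pair, and its value is a description only.

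Osgep had polysome shares of 92.3% to 99.9% and monosome shares of 62.1% to 93.1% over both fractions and states, which overlap only across states. Its change was 5.34 ± 0.58 in cytosol (adjusted p = 2.4e-05) and 4.27 ± 0.52 in membrane (adjusted p = 0.00017). Without the monosome libraries, the proximal site of Osgep held under 5% of the reads. The pair thus met the 5% limit only through the monosome libraries. Its comparisons of polysomes with monosomes are not independent of the choice, and their values are a description only. Tuft1, encoding tuftelin, had polysome shares of 91.3%, 85.7%, 96.8% and 95.5% in cytosol (proliferating, then differentiating) and monosome shares of 26.5%, 18.7%, 47.5% and 65.4% (4.42 ± 0.74, adjusted p = 0.0025). In membrane its polysomes had 85.0%, 53.1%, 100% and 96.4% and its monosomes 36.9%, 24.6%, 49.3% and 73.9% (3.59 ± 0.71, adjusted p = 0.025). Within each state the polysome values of Tuft1 were above its monosome values, although the membrane call was lost in 4 of 8 fits that left out 1 library (adjusted p up to 0.15). Thap1 (5.29 ± 1.20 and 4.20 ± 0.88) and Pcbd2 (3.36 ± 0.63 and 3.54 ± 0.57) were named in both fractions as well, and Vapb in cytosol (5.39 ± 0.74, with the empty monosome libraries above). Thap1 had no proximal read in 3 of 4 cytosol polysome libraries, from at most 138 reads each, and in 1 membrane polysome library, from 123 reads, so that its fitted values are no bounds. It lost its call in 7 of 8 such fits in cytosol and 6 of 8 in membrane, and Pcbd2 in 1 of 8 in cytosol (adjusted p = 0.20).

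Slc38a2 went the other way in cytosol. Its polysome shares were 42.7%, 55.6%, 40.2% and 43.9% and its monosome shares 78.8%, 95.6%, 72.7% and 96.9% (-3.17 ± 0.65, adjusted p = 0.012). In membrane the same gene lay between 72.1% and 95.1% in all 8 libraries. Ccdc127 was lower in membrane polysomes, with 57.7%, 55.9%, 70.5% and 65.2% against 81.2%, 80.3%, 85.9% and 86.6% in monosomes (-1.62 ± 0.38, adjusted p = 0.044). Neither comparison had overlapping groups. The call of Ccdc127 was lost in all 8 fits that left out 1 membrane library (adjusted p 0.12 to 0.23), and that of Slc38a2 in 3 of 8 (up to 0.11).

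Between the states, 35 of the 963 pairs had higher and 17 lower distal use in differentiating than in proliferating cells, against 1.62% and 0.724% of all pairs. With a block 111 were higher and 43 lower (6.97% and 2.88% of all pairs). This block was a replicate term shared by both states, whereas the fraction and gradient comparisons had a replicate term within each state. It treats same-numbered libraries of both states as paired, which no label states. The median change was 0.30 over the 963 pairs and 0.16 over all. Without differentiating cytosol monosome replicate 1 the calls dropped from 52 (2.34% of all pairs) to 34. Since all differentiating monosome libraries carry the label of the other medium, the medium and the gradient part cannot be told apart there. The level of muscle markers given above also differed between the differentiating replicates, and its part in these values was not tested. Of the 8 cytoskeleton pairs 3 were called, all lower: Tpm1, Tpm3 and Pdlim7.

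Tpm3 (chr3:89896052 and 89904818, plus strand), encoding a tropomyosin of actin filaments, had distal shares of 96.9% to 98.8% in the 8 proliferating libraries. In differentiating replicate 1 the shares were 38.6% and 20.0% in cytosol polysomes and monosomes and 60.8% and 53.1% in membrane. In replicate 2 they were 86.8%, 80.5%, 87.4% and 73.6%. All 8 lay below the proliferating range, with a change of -4.68 ± 0.76 (adjusted p = 0.012). In each proliferating gradient library the proximal site of Tpm3 held under 5% of the reads. The pair may thus have met the 5% limit only through differentiating libraries, and its test may not be independent of the choice. Tpm1 (chr9:66875781 and 66870397, minus strand) had 76.6% to 96.4% in proliferating cells, and in differentiating cells 9.62%, 14.1%, 8.69% and 12.4% in replicate 1 and 56.5%, 55.0%, 45.4% and 47.1% in replicate 2. Its change was -4.59 ± 0.92 (adjusted p = 0.039), and the call was lost in 12 of 16 fits that left out 1 library (adjusted p 0.034 to 0.11). For both tropomyosins the differentiating replicate with the higher muscle markers had the lower distal shares in every fraction and gradient part.

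Pdlim7 (chr13:55608135 and 55599775, minus strand) had 38.1% to 68.9% in proliferating and 14.4% to 33.4% in differentiating libraries, a change of -2.17 ± 0.18 (adjusted p = 2.5e-07). No differentiating library overlapped with the other state, and replicates differed most in cytosol monosomes, with 19.4% and 32.1%. Fem1a changed by -2.23 ± 0.24 (adjusted p = 8.1e-06), from 9.85% to 54.5% down to 2.95% to 10.9%, which overlap narrowly. Donson, a replication fork gene, had 93.9% to 99.3% in proliferating and 57.1% to 92.3% in differentiating libraries (-3.32 ± 0.54, adjusted p = 0.00093), and the ion channel subunit gene Lrrc8e changed by -3.42 ± 0.72 (adjusted p = 0.012). Without the differentiating libraries, the proximal sites of Donson and Lrrc8e each held under 5% of the reads. Both pairs thus met the 5% limit only through the differentiating libraries. Their comparison between states is not independent of the choice, and its values are a description only.

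Among pairs with a rise, Pcbd2 changed by 2.90 ± 0.43 (adjusted p = 0.00035) and Pmepa1 by 0.93 ± 0.16 (adjusted p = 0.0014). Pmepa1 shares were 18.3% to 32.4% in proliferating and 25.6% to 47.6% in differentiating libraries, which overlap. Gpr153 (2.95 ± 0.71), Sipa1l3 (2.87 ± 0.75), Whsc1 (2.63 ± 0.69) and Ip6k1 (2.56 ± 0.64) had the largest estimates beside Pcbd2, and lost their calls in 9, 15, 15 and 10 of 16 fits that left out 1 library. Over the differentiating libraries together, the proximal sites of Gpr153, Pcbd2 and Ip6k1 each held under 5% of the reads. These pairs thus met the 5% limit only through libraries of proliferating cells. Their comparison between states is not independent of the choice, and its values are a description only. Lmna, in contrast, had 22.9% to 32.7% in proliferating and 21.0% to 33.7% in differentiating libraries (0.04 ± 0.16, adjusted p = 1).

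**Figure D5:**
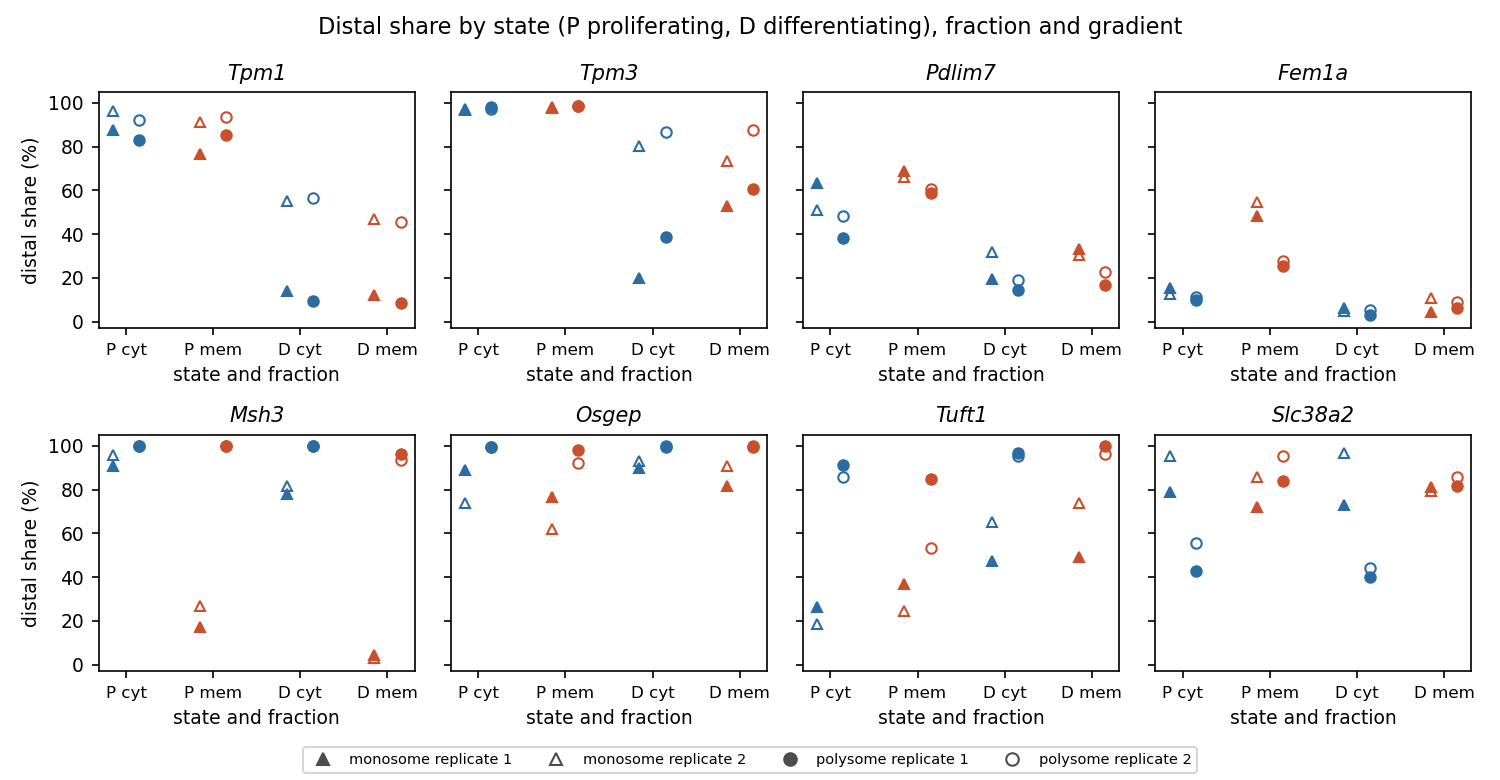
Distal share (%, y axis) in the 16 gradient libraries by state (P proliferating, D differentiating) and fraction (cyt cytosol, mem membrane, x axis) for 8 pairs, with circles for polysomes, triangles for monosomes, filled for replicate 1 and open for replicate 2. Tpm1, Tpm3, Pdlim7 and Fem1a are lower in differentiating cells, and Msh3 drops to 3.18% to 26.5% only in membrane monosomes among these libraries.

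The RNA-seq table gave a second assay, as deposited counts in the part of the 3' UTR between 2 sites (alternative) and before the first (constitutive), with 1 library per fraction and no test. It listed 741 of the 963 genes, and which sites bound its alternative part is not given in the sources used here. The alternative to constitutive ratio was higher in membrane than in cytosol in 216 of 285 genes that had 20 or more reads per region (75.8%, exact Clopper-Pearson 95% interval 70.4% to 80.6%, counting error only), against 79.0% of 3349 genes in all. It was higher in the insoluble fraction than in cytosol in 82.0% of 267 genes (80.3% of all genes), and than in membrane in 55.9% of 333 (45.3% of all). The share in membrane against cytosol was thus near that of all genes. Across the 285 genes Spearman's rho between the RNA-seq difference and the 3' end estimate was 0.03 for the puromycin libraries and 0.00 for the gradient. Of 82 genes called higher in the puromycin libraries 63 were higher by RNA-seq, and so were all 4 called lower.

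In all, 238 of the 963 pairs were called in at least 1 of 9 pair comparisons and 725 in none, against 13.6% of all pairs called, and 189 were called for membrane against cytosol in the proliferating gradient or the puromycin libraries, against 11.0% of all pairs.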

How the data were processed

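Counts were deposited by the authors as 1 table of poly(A) sites with a column of read counts per 3' end library and 1 table of RNA-seq read counts in alternative and constitutive 3' UTR parts, per the file headers. The submitters' processing notes name build mm9, cutadapt, Bowtie2 and STAR 2.5.2. How reads were counted is not given in the sources used here, and PCR duplicates may be among them. Of 125369 site entries, 651 positions under more than 1 symbol (0.560% of reads) were dropped. Each gene's strand with most reads was kept. Of 12464 genes with 2 sites, 4030 had too few reads and 3184 failed only the share, which left 5250.

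The members and gene lists were chosen with earlier results of these data known. Proximal and distal counts of a library entered edgeR 4.0.16 (R 4.3.3) as 2 columns, with a term per library and isoform by group, and the robust quasi-likelihood test. The 16 gradient libraries shared 1 fit, and the 8 puromycin libraries another with a term per exposure pair. P-values were adjusted by Benjamini-Hochberg over all 5250 pairs. The SE is the estimate divided by the square root of F. Gene counts were filtered with filterByExpr and scaled by TMM. The pair and gene tests were checked on simulated data only for membrane against cytosol in proliferating cells. The simulated spread was the same for all pairs or genes, without deviations shared by replicate number. The puromycin tests were not checked in this way. Library totals of 2987706 to 11721948 reads gave 56669 to 408150 reads at these pairs, and intervals and limits for empty sites (3 reads of the pair's total) cover counting error only.

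The labels number replicates but do not say that a number marks a shared culture. Deviations from the group mean correlated by 0.19 to 0.51 between same-numbered libraries of all 16 group pairs tested, over 3254 pairs. The numbers were therefore taken to pair the libraries, and blocked counts stand beside the others. Unless the block is named, estimates, SE and adjusted p of single pairs and genes are from the fit without block. The fits that left out 1 library also had no block. These values thus do not use the pairing.

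Named pairs passed an adjusted p of 0.05 with a mean of at least 50 reads per library and, for fractions, the same sign in each replicate number or exposure. The 10 largest changes per direction were named for proliferating fractions and 5 elsewhere, without clones, predicted genes and dates. The 10 pairs with most reads, the 3 nearest each threshold and up to 4 per gene list were added. Of the named pairs, 2 are not reported here. Alternatives were DESeq2 1.42.0 as test or scaling, at least 26 or 1300 reads, distal reads against all other reads of the gene, 1 state alone, the whole-fraction libraries added, exposed against not exposed, a pseudocount of 0.5 each library or exposure left out and, chosen after seeing the data, the untreated and 0 min pairs or the 30 and 60 min pairs alone.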

Additional observations from a re-analysis of the deposited data

Results flagged for a closer look

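The membrane to cytosol difference in distal use changed with minutes of puromycin, by the test of that change itself, in 8 named pairs. These pairs were named because they passed that test. Over all pairs the difference rose in 0.400% and fell in 0.210%. The change per 30 min in log2 distal to proximal ratio was 1.88 for Lnp, 1.85 for Ttyh2, 1.63 for Elmod3, 1.26 for Sel1l and 1.17 for Edem1. It was -2.92 for Prnp, -1.22 for Slc38a2 and -1.03 for Gorasp2. Each exposure had 1 library per fraction. Leaving out 1 of the 4 exposures ended the calls of Edem1 (3 fits), Lnp and Elmod3 (2 each), and Sel1l and Slc38a2 (1 each). The calls of Ttyh2, Prnp and Gorasp2 were kept in these fits. DESeq2's test called 5 pairs in place of 11, without Ttyh2. At both longer exposures the endoplasmic reticulum markers no longer separated the fractions, and the part of this in the changes was not tested.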

How the results depend on the processing

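With the replicate block the number of pairs called in both directions rose from 24 to 121 for proliferating fractions, from 1 to 39 for differentiating fractions, from 0 to 3 for their difference, from 16 to 78 and from 15 to 57 for polysomes against monosomes in cytosol and membrane, and from 52 to 154 between states, and at gene level to 538 (proliferating) and 387 (differentiating). The unblocked calls of these pair comparisons were all kept. DESeq2's test called 44 (proliferating fractions), 6 (differentiating), 27 (cytosol gradient), 22 (membrane gradient), 77 (states) and 5 (change per 30 min). For the puromycin fractions it called 132 in place of 186, with 130 called by both tests. For distal use per 30 min it called 2. Admitting pairs from 26 reads gave 39 (proliferating), 4 (differentiating), 30 (cytosol gradient), 83 (states) and 4 (distal use per 30 min), and a minimum of 1300 reads gave 7 for the change per 30 min and 1 for distal use per 30 min. Distal against all other reads of the gene gave 2 (differentiating) and 9 (membrane gradient), the 8 differentiating libraries alone 0, and exposed against not exposed 1 for distal use. The cause of these moves was not tested, except that the block adds a term and a single state has fewer libraries. Leaving out 1 library gave 12 to 19 calls for proliferating fractions, 0 to 1 for differentiating, 0 for their difference, 9 to 14 and 4 to 12 for the gradient in cytosol and membrane, 34 to 47 between states, 267 to 292 and 135 to 180 at gene level. Leaving out an exposure, chosen after seeing the data for the 2 results by minutes, gave 129 to 192 for the puromycin fractions (80 from the untreated and 0 min pairs alone and 197 from the 30 and 60 min pairs alone, also chosen after seeing the data), 5 to 10 for the change per 30 min and 0 to 3 for distal use per 30 min. The change of Elmod3 per 30 min ranged from -0.24 (without the 60 min pair) to 3.18 (without the 0 min pair) when an exposure was left out. For single named pairs 4972 alternative values kept direction and call, 70 gained a call, 193 lost it and 1 turned. For proliferating fractions, the 416 pairs under 1300 reads held 0 calls; in the puromycin libraries they held 16 higher and 5 lower.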
